A study of Mus musculus with 15 samples.

Results

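The CCR4-NOT complex shortens the poly(A) tails of mRNAs, and its mRNA levels were examined in 6DT1 cells, a mouse mammary cancer line, after the level of Smarcd1 had been raised or lowered. The members were the 10 listed subunit genes whose Ensembl identifiers occurred in the deposited tables: Cnot1, Cnot2, Cnot3, Cnot4, Cnot6, Cnot6l, Cnot7, Cnot8, Cnot9 and Cnot10. All 10 were measured, among 13501 genes in the OE and EV table and 13669 genes in the KD and shScr table, and they had 54 of the 30220 transcripts of the transcript table. The rule used subunit names and no measured value, though it was set with earlier results of these data known. Cnot9 was listed under the identifier of its older symbol Rqcd1.

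RNA was sequenced from 5 lines with 3 libraries each. OE cells carried a lentiviral Smarcd1 cDNA with a C-terminal Myc tag, expressed from a pol2 promoter, and were set against empty-vector cells (EV), and both were kept in blasticidin. KD4 and KD6 cells each carried a different lentiviral hairpin against Smarcd1 and were set against cells with a scrambled hairpin (shScr), and these 3 lines were kept in puromycin. Together KD4 and KD6 formed the KD group of 6 libraries. All lines were grown as a monolayer on plastic in DMEM with serum, received no other treatment, and were harvested 24 h after seeding at 70% confluence, with each replicate seeded from a different passage. Each construct is represented by 1 line, so the spread between libraries is that of passages of a line, and an effect of the insert cannot be told apart from another difference between lines.

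Deadenylation is usually the first step of cytoplasmic mRNA decay. In the CCR4-NOT complex, CNOT1 is the scaffold on which the other proteins assemble. The activity comes from a CAF1-type nuclease, CNOT7 or CNOT8, which binds the centre of CNOT1 and carries a CCR4-type nuclease, CNOT6 or CNOT6L. RNA-binding proteins bring the complex to chosen mRNAs, and once the tail is short the body of the mRNA is decapped and degraded from the 5' end or taken up by the exosome.

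Values were CPM, read counts scaled to a common library total, and the depth behind them is unknown. Log2 changes are differences of mean log2(CPM + 1) with limma, given with their standard error (SE) or 95% interval, and a gene passed where its p, adjusted over all features of the table, was under 0.05. Smarcd1 had 70.4, 65.0 and 61.7 CPM in OE, against 31.9, 27.1 and 29.9 CPM in EV. In the hairpin lines it had 9.07, 9.05 and 9.27 CPM in KD4 and 13.2, 14.8 and 15.1 CPM in KD6, against 14.5, 16.5 and 15.04 CPM in shScr. It passed in OE (log2 change 1.12, adjusted p = 0.00355, lost without OE replicate 2 at 0.0533 and without EV replicate 3 at 0.052) and in KD4 (-0.69, adjusted p = 0.000873) but not in the libraries labelled KD6 (-0.09, adjusted p = 0.701). KD6 therefore stands below for the label and not for a measured reduction of Smarcd1 mRNA in these libraries. On the first principal component of the OE and EV table, EV replicate 1 lay at -23.7 and the other 5 libraries between 1.1 and 11.3. Of the epithelial markers, Krt8, Krt18 and Krt19 were measured, with summed levels of 660 to 781 CPM in OE, 699 to 829 CPM in EV, 763 to 961 CPM in KD4, 732 to 926 CPM in KD6 and 698 to 770 CPM in shScr. Epcam and Cdh1 were looked for and were not among the measured genes, which are those with a geometric mean of at least 1 CPM. Of other cell types, 1 of 6 fibroblast markers (Pdgfra), 1 of 6 immune markers (Cd68) and 2 of 4 endothelial markers (Kdr and Vwf, of the 2 gene tables in that of OE and EV alone) were measured, and the rest were looked for and were not among the measured genes. Pdgfra had 3.58 to 4.04 CPM in OE, against 3.20 to 3.75 CPM in EV, and 7.12 to 7.75 CPM in KD4 and 4.42 to 5.11 CPM in KD6, against 2.54 to 3.55 CPM in shScr. Cd68 had 46.8 to 68.7 CPM in OE, against 62.0 to 63.5 CPM in EV, and 27.4 to 35.1 CPM in KD4 and 30.3 to 49.7 CPM in KD6, against 32.3 to 38.7 CPM in shScr. Kdr had 0.99 ± 0.18 CPM in OE and 1.37 ± 0.42 CPM in EV (SD, n = 3 each), and Vwf had 5.35 to 36.4 CPM in OE, against 8.51 to 34.0 CPM in EV. None of these markers passed in OE. Transcripts of the 13 mitochondrially encoded genes took 4.59% to 4.89% of the summed CPM in OE and 4.44% to 5.06% in EV, and 3.18% to 3.97% in KD4, 3.38% to 3.64% in KD6 and 3.06% to 3.99% in shScr.

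The complex holds 2 pairs of paralogous nucleases, and the sequences show how far short reads can separate them. The coding sequences of Cnot7 (ENSMUST00000034012, chromosome 8) and Cnot8 (ENSMUST00000020822, chromosome 11) were identical at 70.9% of 858 aligned bases. Those of Cnot6 (ENSMUST00000145353, chromosome 11) and Cnot6l (ENSMUST00000155901, chromosome 5) were identical at 73.3% of 1653 aligned bases. In both pairs the longest run without a difference was 20 bases. The windows below, read 5' to 3' from the GENCODE transcripts of build NCBIM37, show that run in capitals with the bases that flank it:
Cnot7: ggctaTCATTTCACAGTGGTTATGActttg
Cnot8: ggcttTCATTTCACAGTGGTTATGAttttg
Cnot6: caaatCATAAAGACTTCAAGGAACTgaggt
Cnot6l: acaacCATAAAGACTTCAAGGAACTaaggt
The run starts at coding base 463 in Cnot7 and in Cnot8, at base 1300 in Cnot6 and at base 1279 in Cnot6l. How reads that match both genes of a pair were counted is not given in the sources used here.

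All 10 subunits were well above the floor of the tables. Levels of different genes are compared per length, as summed transcript CPM per kb of the most abundant coding transcript, over the 15 libraries. That transcript held on average 33.4% of the sum for Cnot3, 38.6% for Cnot4 and 39.8% for Cnot1. Other forms differ in length or have no known length here, so the order is approximate. Cnot1 was the most abundant, at 37.7 ± 1.52 CPM per kb (SD, n = 15). Of the CAF1-type nucleases, Cnot8 had 27.8 ± 0.82 CPM per kb and Cnot7 24.2 ± 1.19 CPM per kb, with Cnot3 between them at 25.0 ± 3.10 CPM per kb. Cnot6 had 23.0 ± 2.03 and Cnot9 21.2 ± 1.38 CPM per kb. These genes overlapped with their neighbours in the order over the 15 libraries, while Cnot1 did not overlap with any other subunit. Cnot4 had 16.3 ± 1.13 and Cnot10 15.4 ± 0.56 CPM per kb. Cnot6l was the lowest, at 10.5 ± 1.17 CPM per kb, and its highest library (12.2 CPM per kb) lay below the lowest library of Cnot10 (14.4 CPM per kb). Cnot2 is left out of this order, because its listed transcripts summed to 68.7% and 66.8% of its gene value in the 2 gene tables. On transcript sums it had 17.5 ± 2.27 CPM per kb, but on gene values it had 25.1 ± 0.94 CPM per kb in the OE and EV table (SD, n = 6) and 26.4 ± 1.37 CPM per kb in the KD and shScr table (n = 9), where Cnot3 had 26.2 ± 2.67 and 26.2 ± 3.32 CPM per kb.

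**Figure D1:**
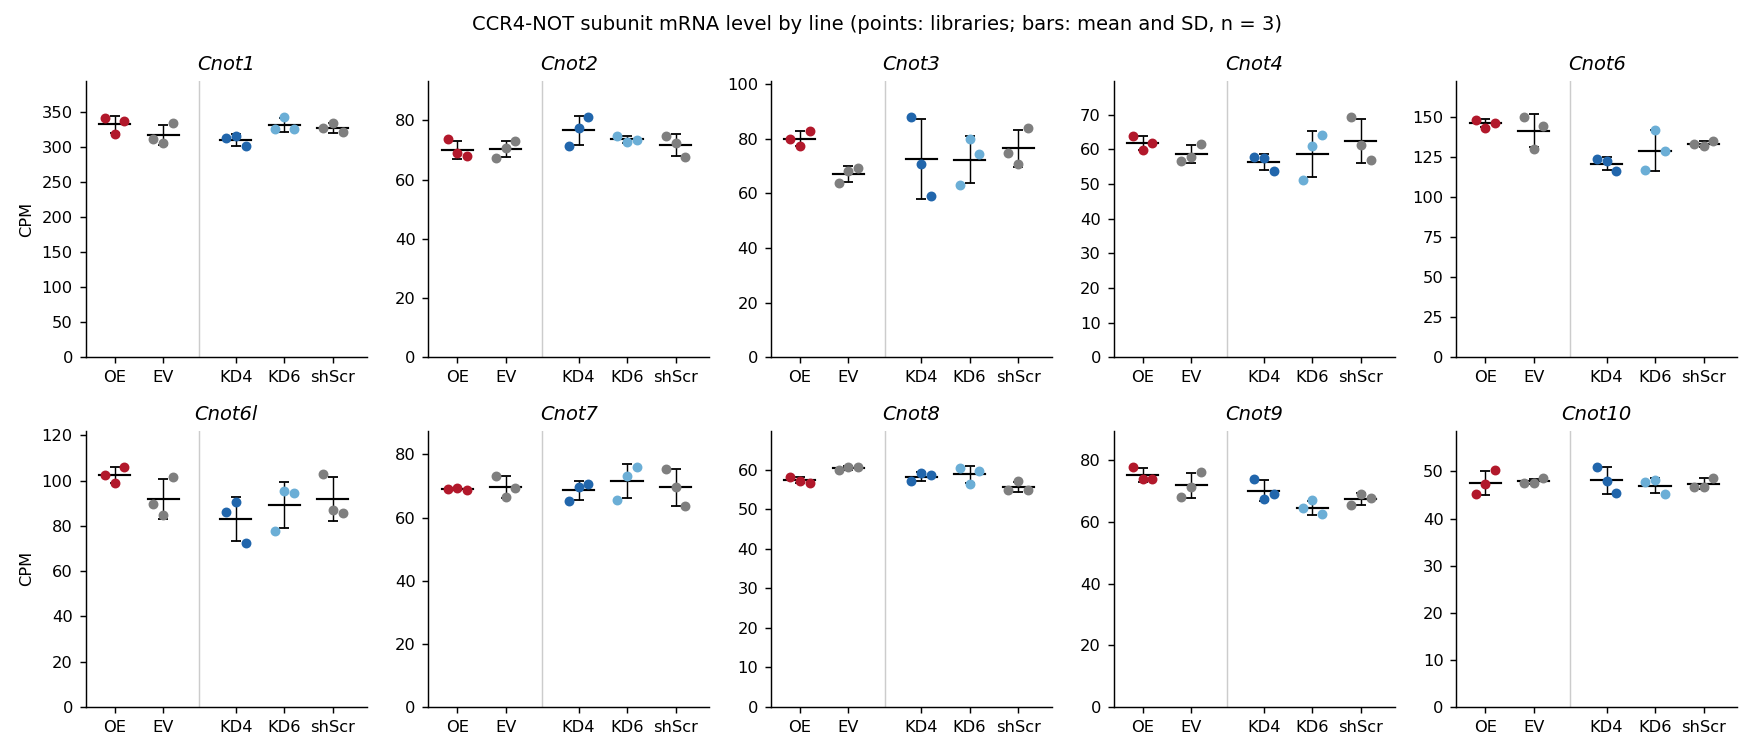
CPM (y axis, from 0) of each of the 10 CCR4-NOT subunits in the 5 lines (x axis), with a point per library and the mean and SD of 3 libraries. Within a panel the lines sit at similar heights, and Cnot3 shows the clearest gap between OE (77.3 to 82.8 CPM) and EV (63.8 to 69.5 CPM); the line in each panel separates the 2 gene tables, which were scaled separately.

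The first comparison asked whether raising Smarcd1 changed the subunits. None of the 10 passed in OE against EV, where 1 of all 13501 genes (0.00741%) did, namely Smarcd1. At an unadjusted p under 0.05 there was 1 member, Cnot3, against 13% of all genes. Mean log2 levels were higher in OE for 6 of the 10 members, against 53.8% of all genes, and the median log2 change was 0.06 for the members and 0.01 for all genes.

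Cnot3, which forms the NOT module at the C-terminal end of CNOT1 together with CNOT2, had the largest difference. It had 80.0, 77.3 and 82.8 CPM in OE, against 63.8, 68.2 and 69.5 CPM in EV. All OE libraries lay above all EV libraries, which was so in one direction or the other for 20% of all genes. The log2 change was 0.25 (SE 0.05, 95% interval 0.13 to 0.37), with a limma p of 0.00116 before and 0.195 after adjustment over all genes. Its partner Cnot2 had 73.6, 69.0 and 67.8 CPM in OE, against 67.5, 70.7 and 73.0 CPM in EV, and these libraries overlapped. Its log2 change was below 0.01 in size (95% interval -0.13 to 0.12).

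Of the nucleases, Cnot6l had 102, 99.0 and 106 CPM in OE, against 89.7, 84.6 and 102 CPM in EV. The highest EV library lay within the OE range, and the log2 change of 0.16 (SE 0.07) had an adjusted p of 0.387. Cnot6 had 149, 144 and 147 CPM in OE, against 150.1, 129.9 and 145 CPM in EV, with a log2 change of 0.05 (SE 0.06). Cnot8 was the other member whose groups did not overlap. It had 58.2, 57.2 and 56.7 CPM in OE, against 60.0, 60.6 and 60.8 CPM in EV, a log2 change of -0.07 (SE 0.04) with an adjusted p of 0.502. Its paralog Cnot7 had 69.1, 69.3 and 68.7 CPM in OE, against 73.2, 66.4 and 69.4 CPM in EV, so the OE libraries fell inside the EV range.

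The scaffold Cnot1 had 341, 319 and 337 CPM in OE, against 312, 306 and 334 CPM in EV, with a log2 change of 0.07 (SE 0.05). Cnot9, which binds CNOT1 and offers a docking surface for RNA-binding proteins and the miRNA machinery, had a log2 change of 0.07 (SE 0.05), and Cnot10, part of the N-terminal module, one of -0.01 (SE 0.05). Cnot4, an E3 ubiquitin ligase that is only loosely held by the mammalian complex, had 63.8, 59.8 and 61.8 CPM in OE, against 56.8, 57.9 and 61.6 CPM in EV, and a log2 change of 0.07 (SE 0.05). The libraries of both lines overlapped for these 4 genes. The 95% intervals of 8 of the 10 members lay within 20% of no change. The exceptions were Cnot3, whose interval ran from 9.60% to 29.1% higher, and Cnot6l, whose interval reached 24.6% higher.

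**Figure D2:**
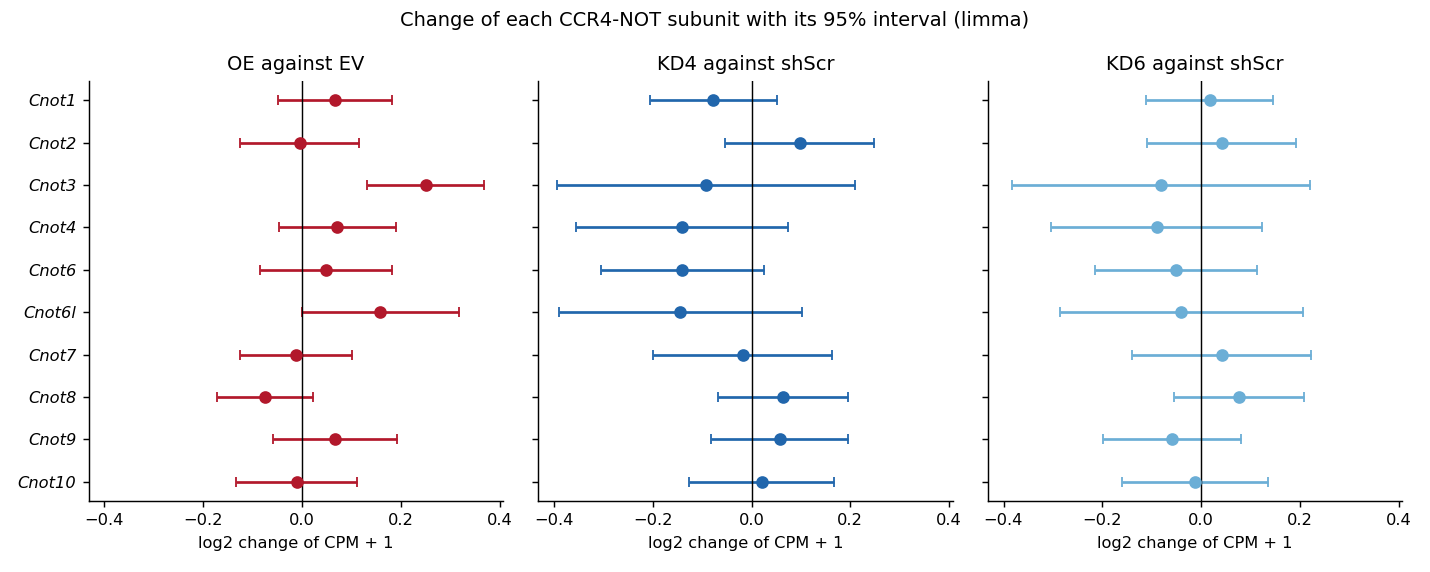
Log2 change of CPM + 1 (x axis) of each subunit with its 95% interval (bars) in OE against EV, KD4 against shScr and KD6 against shScr. The interval of Cnot3 in OE (0.13 to 0.37) is the one that leaves out 0 in these 3 panels before adjustment over all genes; KD4 and KD6 share the shScr libraries.

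The second comparison asked whether the hairpins changed the subunits. None of the 10 passed in KD against shScr, where 2.66% of all 13669 genes did, and none had an unadjusted p under 0.05, against 17.3% of all genes. Smarcd1 itself did not pass in this pooled comparison (log2 change -0.39, adjusted p = 0.268 in limma). The result for KD is therefore not one for a measured reduction of Smarcd1 mRNA in all 6 libraries. Mean log2 levels were higher in KD for 4 of the 10 members, against 49.8% of all genes, and the median log2 change was -0.02 for the members and -0.0004 for all genes. No member had libraries of KD and shScr that did not overlap, against 10.8% of all genes. Log2 changes ran from -0.12 (Cnot4, SE 0.08) to 0.07 (Cnot8, SE 0.05), and the smallest adjusted p was 0.517, for Cnot6. The 95% intervals of 9 of the 10 members lay within 20% of no change, and that of Cnot3 reached 20.9% lower.

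By line, 9.58% of all genes passed in KD4 and 2.91% in KD6 against shScr, and no member passed in either. Cnot1 had 313, 316 and 301 CPM in KD4 and 325, 343 and 326 CPM in KD6, against 327, 335 and 321 CPM in shScr. The KD4 libraries lay below all shScr and all KD6 libraries, while those of KD6 and shScr overlapped. The log2 change of Cnot1 was -0.08 (SE 0.06) in KD4 and 0.02 (SE 0.06) in KD6. Cnot6 was the other member with KD4 apart from shScr, as were 29.5% of all genes. It had 124, 123 and 116 CPM in KD4 and 117, 142 and 129 CPM in KD6, against 133, 132 and 135 CPM in shScr. Its log2 change in KD4 was -0.14 (SE 0.07, adjusted p = 0.278). No member had KD6 libraries apart from shScr, against 22.2% of all genes.

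For the other subunits the libraries of each hairpin line overlapped those of shScr. Cnot6l had 86.0, 90.8 and 72.4 CPM in KD4 and 77.8, 95.6 and 94.6 CPM in KD6, against 103, 87.0 and 85.5 CPM in shScr, and its log2 change was -0.14 (SE 0.11) in KD4 and -0.04 (SE 0.11) in KD6. Cnot3 had 88.0, 70.6 and 58.9 CPM in KD4 and 63.0, 79.9 and 74.3 CPM in KD6, against 74.6, 70.9 and 83.9 CPM in shScr. Its SD was 20.2% of the mean in KD4 and 11.9% in KD6, against 3.39% in OE, and the 95% interval of its log2 change ran from -0.39 to 0.21 in KD4. Cnot4 had 57.9, 57.6 and 53.8 CPM in KD4 and 51.2, 60.9 and 64.1 CPM in KD6, against 69.4, 61.4 and 56.8 CPM in shScr. The lowest levels of Cnot3, Cnot4, Cnot6 and Cnot6l in the 9 libraries of this table were those of KD4 replicate 3 and KD6 replicate 1.

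Cnot7 had 65.3, 69.7 and 70.8 CPM in KD4 and 65.5, 73.3 and 76.1 CPM in KD6, against 75.5, 69.6 and 63.7 CPM in shScr. Cnot8 had 57.1, 59.1 and 58.6 CPM in KD4 and 60.4, 56.4 and 59.7 CPM in KD6, against 55.0, 57.2 and 55.0 CPM in shScr. Neither catalytic gene separated the lines, and the log2 changes were between -0.02 and 0.08. Cnot2 had 71.4, 77.5 and 81.2 CPM in KD4 and 74.9, 72.7 and 73.3 CPM in KD6, against 74.8, 72.3 and 67.5 CPM in shScr. Cnot10 had 51.0, 48.0 and 45.3 CPM in KD4 and 47.7, 48.1 and 45.1 CPM in KD6, against 46.7, 46.8 and 48.7 CPM in shScr. Both overlapped with shScr, with log2 changes in KD4 of 0.10 (SE 0.07) for Cnot2 and 0.02 (SE 0.07) for Cnot10.

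Cnot9 had 73.8, 67.5 and 69.1 CPM in KD4 and 64.4, 66.9 and 62.4 CPM in KD6, against 65.3, 69.0 and 67.6 CPM in shScr, with log2 changes of 0.06 (SE 0.06) in KD4 and -0.06 (SE 0.06) in KD6.

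The hairpin lines were also set against each other, where 4.91% of all genes passed and no member did. All KD6 libraries lay below all KD4 libraries for Cnot9, with a log2 change of -0.12 (SE 0.06, adjusted p = 0.387). Cnot1 was higher in every KD6 library than in every KD4 library, with a log2 change of 0.09 (SE 0.06, adjusted p = 0.464). These were the members whose libraries did not overlap, as was so for 21.6% of all genes.

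A single fit set the OE effect against the KD effect, made on the transcript values summed per gene, since both sets of lines are on 1 scale only in that table. No member passed, against 1.9% of 13142 genes. The difference of the log2 changes, OE effect minus KD effect, was 0.33 for Cnot3 (95% interval -0.05 to 0.71), 0.28 for Cnot6l (95% interval -0.03 to 0.59) and -0.29 for Cnot2 (95% interval -0.70 to 0.11), with adjusted p values of 0.328, 0.306 and 0.419 in limma. The value of Cnot2 rests on the transcript sums and on single libraries. It was -0.12 without EV replicate 1 and -0.14 without shScr replicate 1, and on gene values its log2 change was below 0.01 in size in OE and 0.07 in KD. For the other 7 members it lay between -0.12 and 0.12. The control lines themselves differed in 15.8% of all genes in the same fit (EV against shScr, which also differ in vector and drug), again without a member. Smarcd1 was among those genes, at 27.0 to 32.4 CPM in EV and 14.1 to 17.0 CPM in shScr (log2 difference 0.90, adjusted p = 7.48e-05 in limma). The 2 effects thus start from different levels of Smarcd1. Among the members the largest differences between the controls were -0.17 for Cnot3 (SE 0.13) and 0.14 for Cnot2 (SE 0.14, and -0.0291 to 0.258 on leaving out single libraries), and the smallest adjusted p was 0.188, for Cnot6. Cnot8 was the member whose EV libraries all lay above those of shScr (log2 difference 0.09, SE 0.05), as EV and shScr did not overlap for 38.9% of all genes.

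On the same scale the highest over the lowest line mean ran from 1.04-fold for Cnot10 and Cnot7 to 1.24-fold for Cnot6l. Cnot6l was in order of the mean 101 ± 3.60 CPM in OE, 90.4 ± 10.0 CPM in shScr, 89.6 ± 8.93 CPM in EV, 86.4 ± 10.7 CPM in KD6 and 81.0 ± 9.24 CPM in KD4 (SD, n = 3 each). Cnot1 was 326 ± 13.4 CPM in OE, 323 ± 9.33 CPM in KD6, 317 ± 9.36 CPM in shScr, 314 ± 15.1 CPM in EV and 302 ± 6.12 CPM in KD4. Neighbouring lines in the order overlapped for every member, while the libraries of the highest and the lowest line did not overlap for 8 of the 10, all but Cnot7 and Cnot10. Those lines were picked for each gene by their means, which favours a gap between them. The share over all genes was not computed, so this count shows nothing particular to the subunits. The genes whose centred profiles over the 15 libraries lay nearest to that of Cnot1 were Elp2, Kctd3 and Dnajc11, with root mean square differences of 0.0368, 0.0382 and 0.0388 on the log2 scale, against 0.0563 for the spread of Cnot1 itself. Those nearest to Cnot6l, the member with the widest range of line means, were C1qbp at 0.0644, Zfp809 at 0.0689 and ENSMUSG00000093752 at 0.0797, against 0.158 for Cnot6l itself.

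The balance within the pairs of paralogous nucleases was compared as a log2 ratio of CPM within each library, over 2 ratios and 2 comparisons. Cnot7 over Cnot8 was 0.27 ± 0.02 in OE (SD, n = 3) and 0.20 ± 0.08 in EV (n = 3), a difference of 0.06 with p = 0.4 in a two-sided exact permutation test. It was 0.26 ± 0.10 in KD (n = 6) and 0.32 ± 0.13 in shScr (n = 3), a difference of -0.06 with an exact p of 0.464. Cnot6 over Cnot6l was 0.51 ± 0.04 in OE and 0.62 ± 0.12 in EV, a difference of -0.11 with an exact p of 0.3. It was 0.54 ± 0.09 in KD and 0.54 ± 0.15 in shScr, and the difference was below 0.01 in size, with an exact p of 0.94. After Benjamini-Hochberg adjustment over the 4 tests the smallest p was 0.619, and 3 against 3 libraries cannot give an exact p below 0.1.

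**Figure D3:**
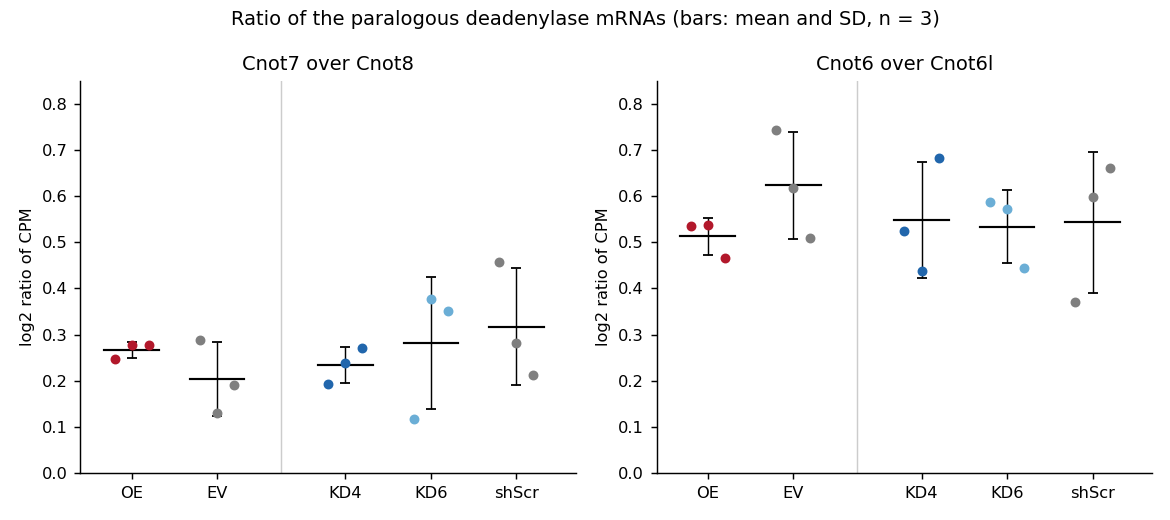
Log2 ratio of CPM (y axis) of Cnot7 over Cnot8 and of Cnot6 over Cnot6l in the 5 lines (x axis), with a point per library and the mean and SD of 3 libraries. All ratios lie above 0, and the libraries of each line overlap those of its control.

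The transcripts of the members were compared next. None of the 54 passed in OE against EV, where 0 of all 30220 transcripts did in limma and 9.65% had an unadjusted p under 0.05. Of the members' transcripts 8 of 54 had such a p, and 37 of 54 had the higher mean in OE, against 56.2% of all transcripts. In KD against shScr 0.295% of all transcripts passed and none of the members' did. There 1 of 54 had an unadjusted p under 0.05, against 12% of all transcripts, and 17 of 54 had the higher mean in KD, against 45.8% of all. The transcripts of a gene share their reads and are not independent of each other.

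**Figure D4:**
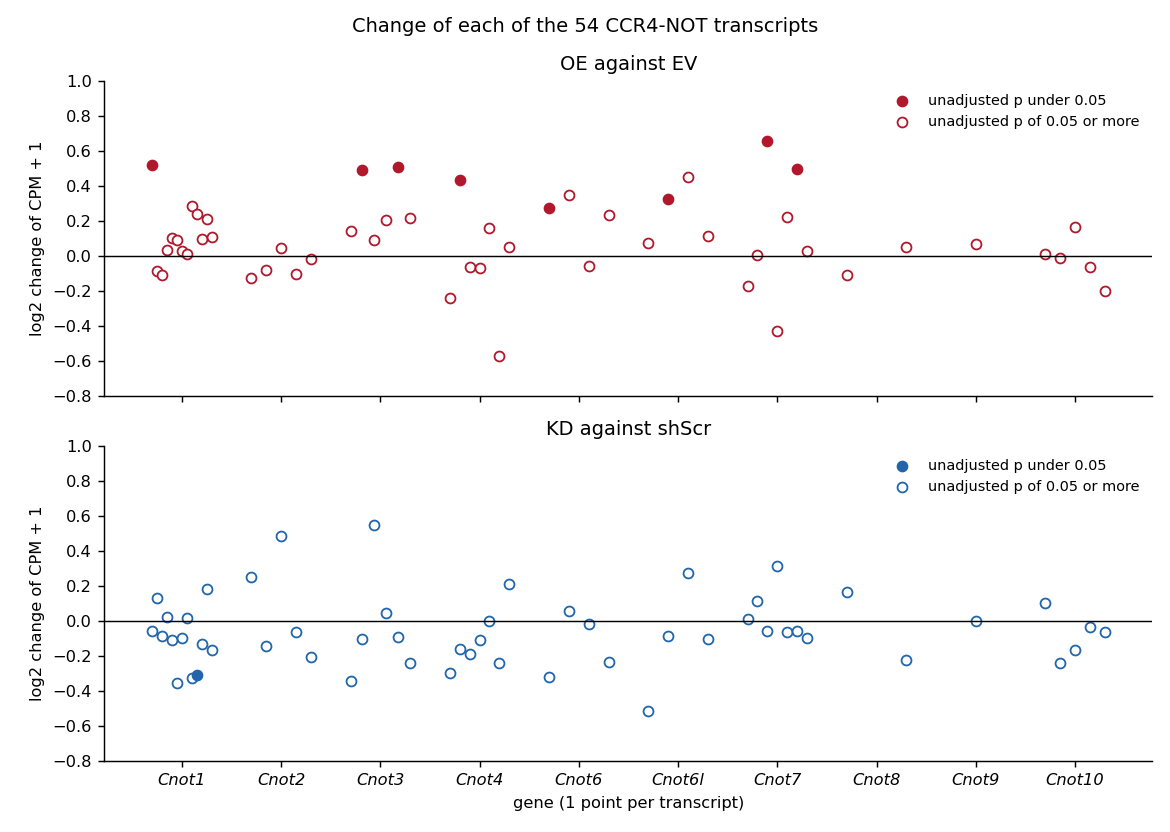
Log2 change of CPM + 1 (y axis) of each of the 54 transcripts by gene (x axis), in OE against EV and in KD against shScr, with filled points for an unadjusted p under 0.05. There are 8 filled points in OE and 1 in KD, and no point passed after adjustment over all transcripts.

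The member transcript with the smallest p in OE was ENSMUST00000114989 of Cnot4. It had 12.02, 11.3 and 12.5 CPM in OE, against 8.34, 8.23 and 9.10 CPM in EV, with a log2 change of 0.44 (SE 0.10). In limma its p was 0.00257 before adjustment and 0.441 after it. This form made up 20.2% ± 1.14 of the summed Cnot4 transcripts in OE and 14.5% ± 0.11 in EV (SD, n = 3 each). In the hairpin lines its share varied more, at 18.4% ± 6.07 in KD (n = 6) and 18.5% ± 1.94 in shScr (n = 3). It lacks a coding exon of 213 bases, exon 11 of 12 at chr6:34974128-34974340 on the minus strand of NCBIM37, which the most abundant form ENSMUST00000114993 contains. Upstream of this exon ENSMUST00000114989 carries 9 bases more than ENSMUST00000114993, and downstream of it the 2 forms have the same sequence. The junctions that tell the forms apart are shown with the last bases of the preceding exon in lower case and the first bases of the exon joined to it in capitals:
Cnot4 without the exon: ggatccccatagcagGTATTCCAGCATCTT
Cnot4 with the exon: ggatccccatagcagACAACAACAGTTCTG

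The next smallest p values in OE were those of coding, retained-intron and unannotated forms. ENSMUST00000020624 of Cnot6 had 23.0, 22.3 and 23.4 CPM in OE, against 18.0, 19.7 and 18.7 CPM in EV (log2 change 0.27, adjusted p = 0.444). ENSMUST00000206287 of Cnot3 had 2.699, 1.71 and 1.65 CPM in OE, against 1.11, 1.14 and 1.04 CPM in EV (0.51, adjusted p = 0.465). As for the Cnot4 form, no EV library reached into the OE range for either, which was so for 17.5% of all transcripts. ENSMUST00000132740 of Cnot7, annotated as a retained intron, had 2.28, 3.11 and 1.71 CPM in OE, against 0.70, 1.30 and 1.38 CPM in EV (0.66, adjusted p = 0.472). ENSMUST00000113005 of Cnot6l, a coding form that made up 19.4% of the transcripts of its gene on average, had 20.1, 23.2 and 23.6 CPM in OE, against 18.8, 15.8 and 18.2 CPM in EV (0.32, adjusted p = 0.472). These too did not overlap, and over all 54 transcripts the OE libraries lay above those of EV for 11 and below them for 3.

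In KD the smallest p was that of ENSMUST00000212340 of Cnot1, a form that made up 0.716% of the transcripts of that gene on average. It had 2.16, 2.11 and 2.04 CPM in KD4 and 1.82, 2.55 and 1.84 CPM in KD6, against 2.21, 3.11 and 3.19 CPM in shScr (log2 change in KD -0.31, SE 0.13, adjusted p = 0.381). The main form of Cnot8, ENSMUST00000020822, had 37.5 to 43.5 CPM in KD, against 34.7 to 40.1 CPM in shScr (0.17, adjusted p = 0.419). ENSMUST00000212323 of Cnot1 (-0.33), ENSMUST00000135977 of Cnot3, annotated as a target of nonsense-mediated decay (0.55), and the main coding form ENSMUST00000105267 of Cnot2 (0.25) followed, with adjusted p values from 0.45 to 0.473. The last 2 values rest on single shScr libraries. On leaving out a library, ENSMUST00000135977 ranged from 0.21 (without shScr replicate 3) to 0.88 (without shScr replicate 2) and ENSMUST00000105267 from 0.0795 (without shScr replicate 1) to 0.41 (without shScr replicate 2). The libraries of KD and shScr overlapped for each of these.

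The share of transcripts within a gene was tested with diffSplice in the 9 members with at least 2 transcripts. None passed in OE, against 1.09% of 7077 genes, or in KD, against 1.06%. In OE the smallest p from limma's diffSplice was that of Cnot7, at 0.00472 before adjustment and 0.124 after it. Its main coding form ENSMUST00000034012 took 47.0%, 46.0% and 44.3% of the Cnot7 transcripts in OE, against 50.4%, 50.8% and 52.2% in EV, without overlap. How often such shares do not overlap over all transcripts was not computed. In KD the share of this form was 43.1% ± 3.51 (SD, n = 6), against 42.2% ± 2.90 in shScr (n = 3), and the test gave Cnot7 an adjusted p of 0.852. In KD the smallest were those of Cnot8, at 0.0346 before and 0.371 after adjustment, and Cnot3, at 0.0417 before and 0.392 after adjustment. For Cnot3 the most abundant listed transcript was the retained-intron form ENSMUST00000143085, at 33.4% to 56.0% over the 15 libraries, ahead of the coding form ENSMUST00000038913 at 21.9% to 46.0%. On simulated data diffSplice, which assumes 1 spread for all transcripts of a gene, made more false calls than its nominal level.

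The partners of the complex were listed by their roles. Cnot11, the subunit that binds CNOT10 and was not among the members, had 25.5, 25.5 and 27.3 CPM in OE, against 28.0, 28.1 and 27.9 CPM in EV (log2 change -0.10, adjusted p = 0.498), and a log2 change of -0.06 in KD (adjusted p = 0.677). In OE none of the 19 measured RNA-binding proteins and adaptors, 4 other deadenylases, 6 poly(A)-binding proteins and partners, 18 decapping and 5' decay genes or 14 exosome and SKI genes passed. The median log2 changes in OE were 0.10 for the recruiters, 0.10 for the poly(A)-binding group, 0.07 for decapping, 0.04 for the other deadenylases and -0.02 for the exosome group, against 0.01 for all genes.

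Zfp36l1, which binds AU-rich elements and recruits the deadenylase, had 67.0, 62.9 and 72.4 CPM in OE, against 52.5, 52.3 and 51.3 CPM in EV, with a log2 change of 0.37 (SE 0.06, adjusted p = 0.157). Samd4, the mammalian Smaug protein, had a log2 change of 0.19 (adjusted p = 0.281). The cytoplasmic poly(A)-binding proteins Pabpc1 and Pabpc4 had 0.23 and 0.13 (adjusted p of 0.292 and 0.295). Patl1, which links deadenylation to decapping, had 0.23 (adjusted p = 0.196), and Eif4enif1, the eIF4E transporter of P-bodies, 0.20 (adjusted p = 0.228). For these 6 genes, named for the smallest p of their lists, every OE library lay above every EV library, and none passed. Over all 61 partner genes measured, OE and EV did not overlap for 18 (29.5%), against 20% of all genes. Of the deadenylases outside the complex, Pan2 had 0.15 and Toe1 -0.17, and of the exosome Exosc4 had -0.11 and Exosc5 -0.09, with adjusted p values from 0.429 to 0.503. For Cnot11, Exosc4 and Exosc5, named by the same rule, every OE library lay below every EV library.

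Of the 61 partner genes 1 (1.64%) passed in KD, 3 (4.92%) in KD4 and 2 (3.28%) in KD6. The shares over all genes were 2.66%, 9.58% and 2.91%. Libraries did not overlap with shScr for 6.56% of the partners in KD, 18% in KD4 and 16.4% in KD6. Over all genes this was so for 10.8%, 29.5% and 22.2%. In the hairpin lines Dcp2, the enzyme that removes the cap after deadenylation, rose. It had 80.0, 87.1 and 83.8 CPM in KD4 and 76.6, 78.8 and 80.3 CPM in KD6, against 58.1, 59.8 and 54.6 CPM in shScr. All 6 KD libraries were higher, and the log2 change was 0.49 in KD (SE 0.06, adjusted p = 0.00184), 0.53 in KD4 and 0.44 in KD6. It was the only gene of the 18 decapping and 5' decay genes that passed in KD, and the median log2 change of the list was -0.0024. In the table with all lines on 1 scale, Dcp2 had 73.6 to 79.2 CPM in OE, 71.5 to 77.0 CPM in EV and 75.6 to 86.1 CPM in the KD libraries, against 53.7 to 58.5 CPM in shScr. The shScr line was thus lower than the other 4 lines, and EV also exceeded it (log2 difference 0.39, SE 0.06, adjusted p = 0.00067). The change in KD and a low level particular to the shScr line cannot be told apart. Dcp2 had a log2 change of 0.05 (adjusted p = 0.703) in OE.

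Tob2, a BTG/TOB adaptor that links poly(A)-binding protein to the CAF1-type nucleases, rose in KD4. It had 112, 88.9 and 79.3 CPM in KD4 and 74.2, 89.7 and 71.8 CPM in KD6, against 52.7, 59.7 and 64.6 CPM in shScr. All KD libraries were higher, with a log2 change of 0.64 in KD4 (SE 0.13, adjusted p = 0.0124), 0.40 in KD6 (adjusted p = 0.147) and 0.52 in KD (adjusted p = 0.0519). Without shScr replicate 1 the adjusted p in KD4 was 0.0546. EV also exceeded shScr for Tob2 (log2 difference 0.43, adjusted p = 0.0263), a call that was lost without EV replicate 1 or 3 or shScr replicate 1 or 2 (adjusted p of 0.0541 to 0.105). With all lines on 1 scale, Tob2 had 52.3 to 63.1 CPM in shScr and 71.5 to 111 CPM in the KD libraries. EV had 74.9 to 85.1 CPM and OE 81.2 to 92.7 CPM. The rise in KD4 and a low level particular to the shScr line cannot be told apart. Tnrc6a, the GW182 protein that couples the miRNA machinery to CNOT1 and CNOT9, fell in KD4, to 149.7, 161 and 148 CPM, against 202, 195 and 194 CPM in shScr (log2 change -0.36, SE 0.07, adjusted p = 0.00831). It had 169, 194 and 180.2 CPM in KD6, a log2 change of -0.12 (adjusted p = 0.443), and -0.24 in KD (adjusted p = 0.167). With all lines on 1 scale, Tnrc6a had 141 to 151 CPM in KD4, 165 to 182 CPM in KD6 and 182 to 185 CPM in shScr. OE had 156 to 176 CPM and EV 158 to 170 CPM, all below shScr. The part of a high shScr level in the fall in KD4 was not tested. The recruiters otherwise gave no call in KD, KD4 or KD6, and their median log2 change in KD was -0.02.

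Lsm1, a subunit of the ring that binds short poly(A) tails and promotes decapping, fell in KD6. It had 25.1, 22.2 and 24.3 CPM in KD6 and 29.9, 29.4 and 31.1 CPM in KD4, against 31.6, 30.1 and 33.9 CPM in shScr. The log2 change was -0.41 in KD6 (SE 0.08, adjusted p = 0.0181) and -0.08 in KD4 (adjusted p = 0.564). The call in KD6 was lost without KD6 replicate 2 (adjusted p = 0.0919), without shScr replicate 1 (0.0591) and without shScr replicate 3 (0.0791). The deadenylases outside the complex, the poly(A)-binding group and the exosome and SKI group gave no call in KD, with the smallest adjusted p values for Pan3 (0.62), Toe1 (0.782), Pabpc1 (0.274), Pabpc4 (0.668), Dis3l (0.349) and Dis3 (0.36). Their median log2 changes in KD were -0.04, -0.07 and -0.04, against -0.0004 for all genes. The fibroblast marker Pdgfra moved with the hairpin lines (log2 change 1.05 in KD4, adjusted p = 0.000458, and 0.48 in KD6, adjusted p = 0.0506). The epithelial marker Krt19 fell in KD4 (-0.76, adjusted p = 0.00106). The other 2 epithelial markers measured, Krt8 and Krt18, had higher means in KD4 than in shScr and did not pass. The part of these markers in the changes of Dcp2, Tob2, Tnrc6a and Lsm1 was not tested.

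**Figure D5:**
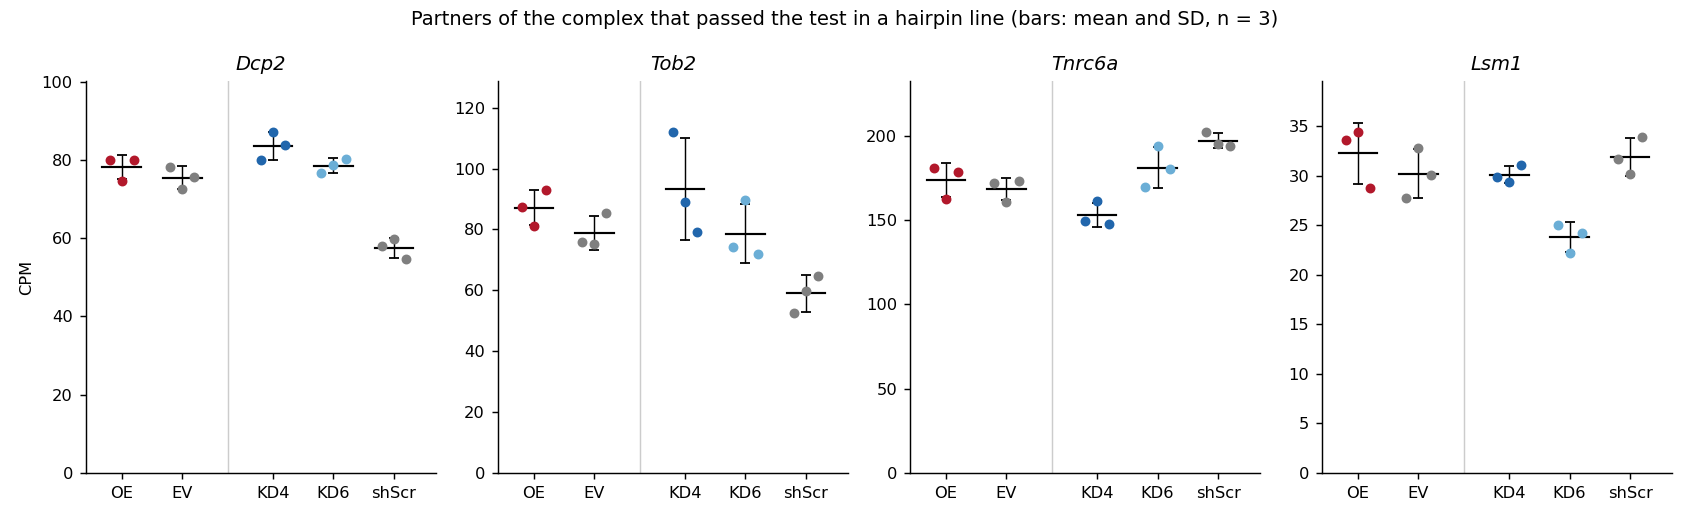
CPM (y axis, from 0) of Dcp2, Tob2, Tnrc6a and Lsm1 in the 5 lines (x axis), with a point per library and the mean and SD of 3 libraries. Dcp2 is lower in shScr (54.6 to 59.8 CPM) than in any other line, and Lsm1 is lowest in KD6 (22.2 to 25.1 CPM).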

How the data were processed

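The 15 libraries were mRNA from 6DT1 lines (3 each of OE, EV, KD4, KD6 and shScr). The deposited values were CPM calculated by the authors, per gene in 2 tables and per transcript in 1, already limited to features with a geometric mean of at least 1 CPM. STAR 2.7.8a and mm39 stand in the submitters' processing notes but Tophat and mm9 in the published methods, so the aligner and build behind the values are not settled. Depth is unknown and no counting intervals could be given. The 15 columns that match no sample here were not used, nor were the authors' own fold changes and p values. Symbols matched 88.1% and 87.3% of genes.

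Values were tested as log2(CPM + 1) by limma 3.58.1 (R 4.3.3), its prior variance following the mean level, and p values were adjusted over all features after Benjamini and Hochberg, and scripts were tested on simulated data. KD4, KD6 and shScr shared 1 fit for the comparisons by line. The members and lists were chosen with earlier results of these data known. Every member was named, and of each list up to 4 genes that passed or, in OE and KD, the 2 with the smallest p. For transcripts the 5 with the smallest p were named. Smarcd1, Pdgfra and Krt19 were named after their values were seen. Alternatives were a pseudocount of 0.1, a minimum mean of 5 CPM, other scalings, robust variance, a replicate block, the mean of the hairpins and leaving out each library. Of 54 member transcripts, 32 were in the GENCODE annotation of NCBIM37 used for sequences, and the others carry no annotation here.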

Additional observations from a re-analysis of the deposited data

Results flagged for a closer look

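No member passed where KD6 was set against KD4 or the OE effect against the KD effect. In each of these comparisons 1 of the 61 partner genes (1.64%) passed, against 4.91% and 1.9% of all genes. Neither count stood above the share over all genes. For Lsm1 the KD6 and KD4 lines differed (log2 difference KD6 minus KD4 -0.33, adjusted p = 0.0341 in limma, lower in 3 of 3 KD6 libraries). This call was lost with a replicate block (adjusted p = 0.0885) and without any of 7 single libraries (adjusted p of 0.0504 to 0.15). For Dcp2 the effect of OE differed from that of KD (difference of log2 changes -0.44, adjusted p = 0.00996 in limma), with OE overlapping EV and all 6 KD libraries above shScr. With a replicate block the adjusted p was 0.0518. On that scale Dcp2 had 73.6 to 79.2 CPM in OE, 71.5 to 77.0 CPM in EV and 75.6 to 86.1 CPM in KD, against 53.7 to 58.5 CPM in shScr, so shScr was the line that stood lower. In the 6 KD libraries none of the 31 genes looked at, the 10 members included, had a library that stood apart by Dixon's criterion. These libraries pool KD4 and KD6, and a difference between the lines can hide a library that stands apart. The check did not cover OE, EV or shScr.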

How the results depend on the processing

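No member passed in any comparison under any alternative run, and the smallest adjusted p of a member was 0.0517 (Cnot6 in EV against shScr, without EV replicate 2). Signs near 0 turned with quantile normalization for Cnot10 in KD (-0.0153), Cnot3 in KD6 against KD4 (-0.00653), Cnot7 in the OE effect minus the KD effect (0.0198) and Cnot10 in EV against shScr (-0.0401), with median-of-ratios scaling for Cnot10 in KD (-0.000827), and with transcript sums for the KD ratio of Cnot6 over Cnot6l (0.0406). Leaving out each library in turn, the log2 change ranged over both signs for these members. In OE the range was Cnot2 -0.0392 to 0.0220, Cnot6 -0.0109 to 0.0926, Cnot7 -0.0455 to 0.0245 and Cnot10 -0.0513 to 0.0253. In KD the range was Cnot7 -0.0494 to 0.0718, Cnot9 -0.0272 to 0.0203 and Cnot10 -0.0160 to 0.0235. In KD4 the range was Cnot3 -0.239 to 0.0467, Cnot7 -0.0793 to 0.0419 and Cnot10 -0.0216 to 0.0616. In KD6 the range was Cnot1 -0.00742 to 0.0328, Cnot3 -0.155 to 0.0138, Cnot4 -0.156 to 0.00330, Cnot6 -0.121 to 0.0200, Cnot6l -0.0919 to 0.0554, Cnot7 -0.0195 to 0.104 and Cnot10 -0.0297 to 0.0159. In KD6 against KD4 the range was Cnot3 -0.128 to 0.157, Cnot4 -0.0140 to 0.144, Cnot8 -0.00662 to 0.0418 and Cnot10 -0.0738 to 0.00936. In the OE effect minus the KD effect the range was Cnot7 -0.0572 to 0.0512. In EV against shScr the range was Cnot1 -0.0458 to 0.0230, Cnot2 -0.0291 to 0.258, Cnot4 -0.0837 to 0.0610, Cnot6l -0.0875 to 0.0783 and Cnot7 -0.0816 to 0.0268. The difference of the log2 ratio ranged -0.0884 to 0.0562 for Cnot6 over Cnot6l in KD and -0.112 to 0.0109 for Cnot7 over Cnot8 in KD. Calls over all features ranged, leaving out a library, from 0 to 1 in OE, 92 to 397 in KD, 641 to 1309 in KD4, 151 to 419 in KD6, 298 to 611 in KD6 against KD4, 1 to 62 for KD transcripts, 91 to 411 for the OE effect minus the KD effect, 971 to 2401 in EV against shScr, and 20 to 127 and 37 to 90 for transcript usage in OE and KD. They were 3 in OE with quantile normalization or robust variance, 847 in KD with the mean of the hairpins, and 5 in OE and 16 in KD for usage at a minimum mean of 5 CPM. The replicate numbers did not pair the samples (correlations of same-numbered libraries -0.378 to 0.126 in the KD and shScr table and -0.224 to 0.279 in the OE and EV table). Between lines, libraries of different number had correlations of -0.453 to 0.476 and -0.389 to 0.317 in these tables. A factor shared by libraries of different number was not tested. With a replicate block, calls over all features were 114 in KD, 626 in KD4, 179 in KD6, 349 in KD6 against KD4, 1 for KD transcripts, 43 for the OE effect minus the KD effect, 990 in EV against shScr, and 19 and 22 for usage in OE and KD, no member passed, and Lsm1 in KD6 (adjusted p = 0.0555), Lsm1 in KD6 against KD4 (0.0885), the Dcp2 difference of OE and KD (0.0518), and Tob2 (0.0602) and Lsm5 (0.0959) in EV against shScr were lost. Tob2 passed in KD without KD4 replicate 1 (adjusted p = 0.0417), without KD6 replicate 3 (0.0364) and with the mean of the hairpins (0.0222), where Tnrc6a (0.0354) and Smarcd1 (0.013) passed too. Lsm1 in KD6 against KD4 also lost its call without 7 of the libraries in turn (adjusted p up to 0.15), and Lsm5 in EV against shScr with quantile normalization (0.12). Tob2 in EV against shScr lost its call without EV replicate 1 or 3 or shScr replicate 1 or 2 (up to 0.105). Dcp2 kept its call in KD, KD4 and KD6 under every alternative run. The causes were not tested. Depth, and with it the counting error of a value, is unknown.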

Other observations

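EV and shScr are both controls, and 5 of 61 partner genes of the complex (8.2%) and none of the 10 members passed between them, against 15.8% of all genes, so neither count stood above the share over all genes. Btg2, a BTG/TOB family adaptor of the CAF1-type nucleases, had 51.9 to 59.7 CPM in EV, against 21.6 to 24.1 CPM in shScr (log2 difference 1.27, SE 0.12, adjusted p = 3.67e-05), and had 46.6 to 53.7 CPM in OE and 12.005 to 22.7 CPM in the KD libraries. Skic8, a subunit of the SKI complex that feeds mRNA to the exosome, was also higher in EV (0.41, SE 0.07, adjusted p = 0.0023). The immune marker Cd68 moved with these in the same comparison, at 60.5 to 62.8 CPM in EV, against 32.3 to 38.8 CPM in shScr (0.81, adjusted p = 0.00662), and its part in these differences was not tested. Lsm5 of the LSM ring was lower in EV in the summed transcript values (-0.54, adjusted p = 0.0466), a call that was lost when any of 10 single libraries was left out (adjusted p up to 0.162), but its gene values were 6.82 to 7.32 CPM in EV and 5.60 to 7.59 CPM in shScr. All 13 mitochondrially encoded genes had the higher mean log2 level in EV, and 7 of them passed (median log2 difference 0.37).

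For Cnot2 the listed transcripts summed to 68.7% of the gene value in the OE and EV table and 66.8% in the KD and shScr table, while for the other 9 members they summed to between 90.3% and 99.4%. In EV replicate 1 the summed Cnot2 transcripts stood at 63.3 CPM, against 43.2 and 45.7 CPM in the other EV libraries, while its gene values were 67.5, 70.7 and 73.0 CPM.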
